A study of Homo sapiens with 12 samples.

Results

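G1 cyclins, their kinases and the inhibitors of those kinases were followed in 3 human hepatocellular carcinoma (HCC) cell lines. The genes were taken by name: the D-type cyclins CCND1, CCND2 and CCND3, the E-type cyclins CCNE1 and CCNE2, the kinases CDK4 and CDK6, and the inhibitors CDKN1A, CDKN1B and CDKN2C. Of these 10 genes, 9 are in the table of 11548 genes, and CCND2 was not analysed here. RNA sequencing covered Hep3B, MHCC97H and Huh7 cells, labelled WT, with 4 treatments each and 1 library per line and treatment, 12 in all. Cells were left untreated or received AZD8055, compound #57 or AZD8055 +Compound #57, named the combination from here on. AZD8055, an inhibitor of the mTOR kinase, was given at 100 nM, and compound #57, an allosteric inhibitor of the phosphatase SHP2, at 5 µM in the combination. The dose of compound #57 given alone is not stated in the sources used here. Exposure lasted 24 h in MHCC97H cells and 48 h in Hep3B and Huh7 cells, so the time of exposure and the line cannot be told apart.

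The libraries held 10659951 to 15957251 reads. A level below is the number of reads of a gene scaled to 10000000 reads per library, called scaled reads, and a log2 value is the log2 of scaled reads plus 1. Of 16 hepatocyte and HCC markers, all passed 3 reads in Hep3B and Huh7, while TTR held at most 3 reads in each MHCC97H library. The summed level of these markers was 308272 to 701648 scaled reads in Hep3B, 420720 to 584150 in Huh7 and 53719.6 to 62399.9 in MHCC97H. Of markers of other cell types, 1 of 5 for leukocytes and 1 of 4 for endothelium were analysed. For fibroblasts and stellate cells it was 2 of 6. LYZ (leukocytes) ranged from 0.8 to 4.9 scaled reads in MHCC97H, from 31.6 to 1141 in Hep3B and from 523 to 7518 in Huh7. PECAM1 (endothelium) ranged from 285 to 542 in MHCC97H and up to 55.8 in the other lines. COL1A1 and LUM (fibroblasts) together took 90.1 to 901.8 scaled reads over the 12 libraries. With so few markers analysed, these levels do not show whether such cells were present.

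Growth signals raise D-type cyclins, which bind CDK4 or CDK6. These kinases phosphorylate the RB protein, and E2F factors are then free to switch on genes of DNA synthesis, among them the E-type cyclins, partners of CDK2. CDKN2C (p18) belongs to the INK4 family, which binds CDK4 and CDK6 directly. CDKN1A (p21) and CDKN1B (p27, a classical FOXO target whose protein is marked for destruction by SKP2) belong to the CIP/KIP family, which restrains cyclin E and CDK2. In the liver, p21 and p27 hold hepatocytes in a resting state, and gain of the CCND1 locus is known in HCC.

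The start regions of 3 of these genes are shown. With the combination, CCNE1 was lower and CDKN1B higher than in untreated cells in all 3 lines. CDK4 had the narrowest range of the 9 genes over the 12 libraries, although in MHCC97H its log2 value changed by -0.60 with the combination. RefSeq windows (GRCh38.p14) were matched for 7 of the 10 genes. Each sequence below runs 5′ to 3′ on the strand of its gene. Those of CCNE1 and CDKN1B end just before an annotated start exon, and that of CDK4 is the 113 bases of its window furthest from the start. Capitals mark GC boxes (GGGCGG, or CCGCCC on the other strand) and E-boxes (CACGTG, the same on both strands), which do not overlap each other.
CCNE1, chr19:29811741-29811990, plus strand: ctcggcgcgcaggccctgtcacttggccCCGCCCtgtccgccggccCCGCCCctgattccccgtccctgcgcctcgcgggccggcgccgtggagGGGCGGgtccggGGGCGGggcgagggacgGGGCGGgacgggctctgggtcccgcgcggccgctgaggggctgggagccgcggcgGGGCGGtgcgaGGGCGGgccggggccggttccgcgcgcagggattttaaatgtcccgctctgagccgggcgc
CDKN1B, chr12:12717118-12717367, plus strand: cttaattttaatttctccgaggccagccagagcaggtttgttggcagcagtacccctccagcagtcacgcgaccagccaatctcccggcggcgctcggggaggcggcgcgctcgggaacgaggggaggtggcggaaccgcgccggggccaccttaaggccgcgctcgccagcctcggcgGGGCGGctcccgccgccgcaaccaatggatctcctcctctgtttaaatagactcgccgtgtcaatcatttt
CDK4, chr12:57752448-57752560, minus strand: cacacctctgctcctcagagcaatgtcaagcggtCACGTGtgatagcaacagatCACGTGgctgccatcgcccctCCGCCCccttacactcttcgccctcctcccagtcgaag

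The 250 bases before the CCNE1 start held 7 GC boxes and 81.2% G and C, against a median of 58.0% over all 35116 windows. In CDKN1B the same length held 1 GC box and 64.4% G and C. Of the other genes matched, CDKN1A held 4 GC boxes. The windows of CCND3 held 5, 2 and 0, those of CDK6 3 and 0, and those of CDKN2C 0, 5 and 1. A GC box occurred in 42.6% of all windows. Over its whole window of 250 bases CDK4 held 3 E-boxes and 3 GC boxes, of which 2 E-boxes and 1 GC box lie in the stretch printed. An E-box occurred in 6.34% of all windows, and 28 of them (0.0797%) held 3 or more. The E2F words TTTGGCGC, TTTCCCGC, TTTCGCGC and TTTGCCGC occurred on either strand in 0.55%, 1.39%, 0.439% and 0.49% of windows, and the FOXO word GTAAACA in 2.98%. None of these 5 words was found in the windows of the 7 genes matched.

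Levels between genes were compared per kilobase of annotated exon. CDK4 had the highest level of the 9 genes in every untreated line, with 758 scaled reads per kilobase in Hep3B, 1116 in MHCC97H and 873 in Huh7. CCND1 followed with 407, 667 and 827 in the same order of lines. Below these, the order differed between the lines. In Hep3B, CDK6 (202) and CCNE1 (129.6) came next, CDKN2C (29.5) and CDKN1A (7.52) were lowest, and CCND3 (55.4), CCNE2 (53.8) and CDKN1B (47.4) lay close together between them. In MHCC97H, CCND3 (299) and CDKN1A (176) stood above CDK6 (150.3), and CDKN1B (38.1) was the lowest of the 9. Ranks per kilobase depend on the exon length used, here the union of all annotated exons (9255 bases for CDKN1B). Without division by length, CDKN1B (353 scaled reads) stood above CCNE1 (195), CCNE2 (321) and CDKN2C (284) in untreated MHCC97H cells. In Huh7, CDK6 stood at 100.3, while CCND3 (15.9), CCNE2 (24.2) and CDKN1A (24.5) closed the list. Neighbours this close rest on 1 library each and have no replicate spread to be set against.

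**Figure D1:**
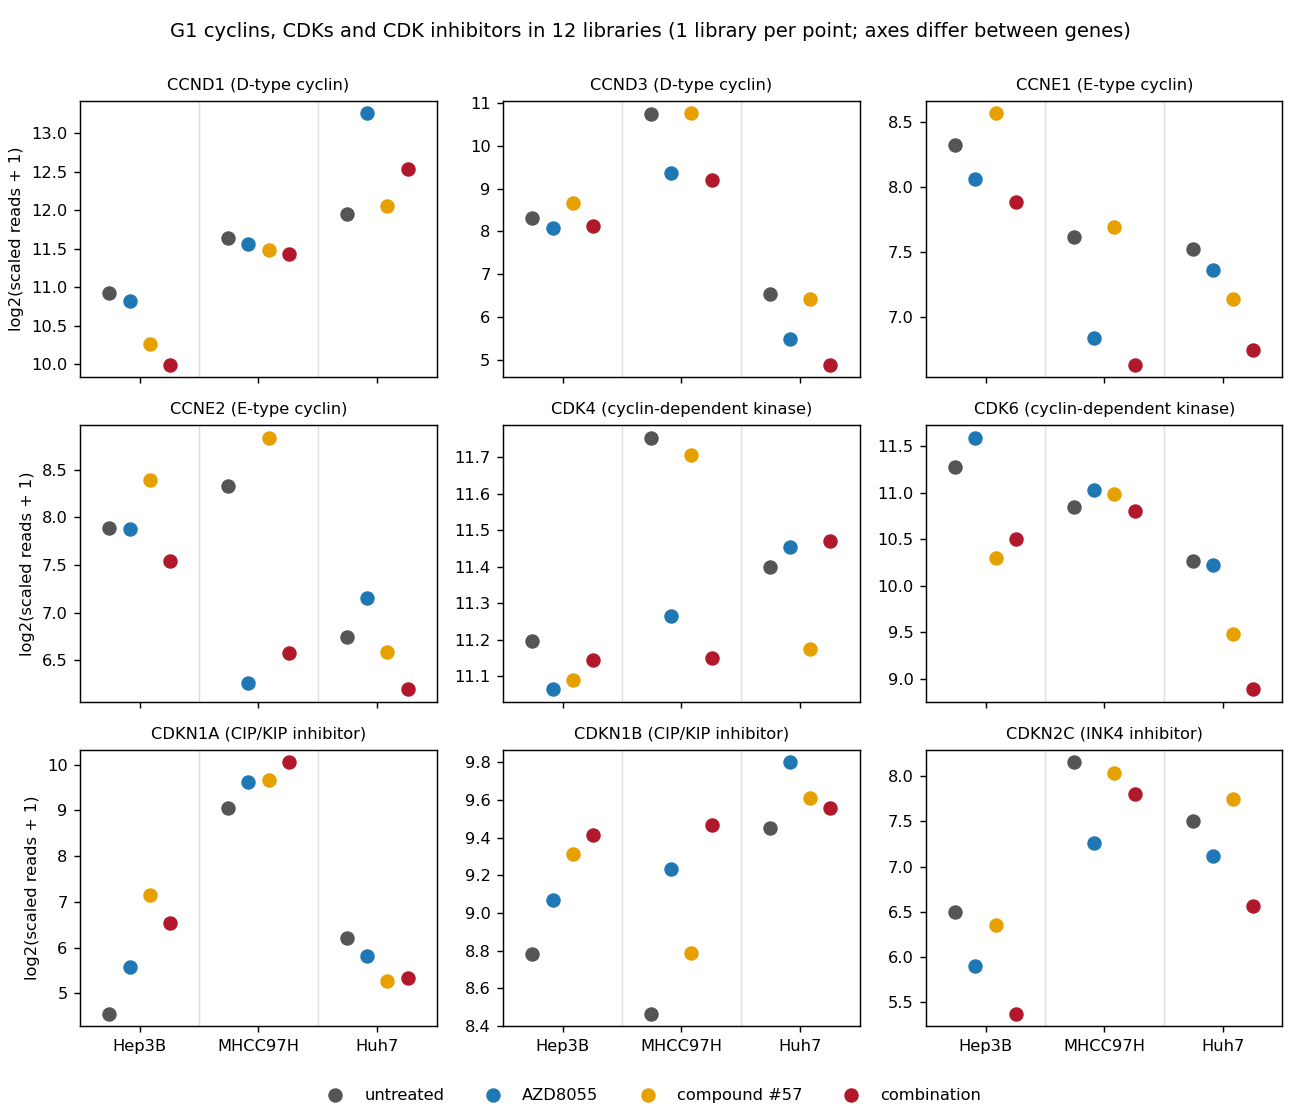
Level of each of the 9 genes in the 12 libraries, as log2 of scaled reads plus 1, with 1 point per library, cell lines along the horizontal axis and treatments in colour; the vertical axes differ between genes. CDK4 stays between 11.06 and 11.75 in all libraries, whereas CDKN1A runs from 4.56 in untreated Hep3B cells to 10.05 in MHCC97H cells with the combination.

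CCND1, with a higher level per kilobase than CCND3 in each of the 12 libraries, had 1940.0 scaled reads in untreated Hep3B cells, 1810.2 with AZD8055, 1233 with compound #57 and 1017 with the combination. In MHCC97H the values in the same order were 3178, 3013, 2864 and 2749. In Huh7 they were 3938, 9783, 4245 and 5929. The highest CCND1 value of the 12 libraries was thus Huh7 with AZD8055, and the lowest Hep3B with the combination. With AZD8055 the log2-fold change was 1.31 in Huh7 (95% interval of the ratio of reads 1.27 to 1.36), against -0.10 in Hep3B and -0.08 in MHCC97H. With the combination it was -0.93 in Hep3B (-1.03 to -0.83), -0.21 in MHCC97H and 0.59 in Huh7 (0.54 to 0.64), so the values of Hep3B and Huh7 had opposite signs. Such intervals hold counting error alone and set library against library, not condition against condition, and in bulk samples fewer cells of a type and less RNA per cell cannot be told apart.

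CCND3, another D-type cyclin, had 319 scaled reads in untreated Hep3B cells, 269 with AZD8055, 406 with compound #57 and 279 with the combination. The MHCC97H values were 1721, 665, 1739 and 588. In Huh7 it had 91.5, 44.1, 84.1 and 28.4. In all 3 lines the libraries with AZD8055, alone or combined, were lower than those without it, and the Hep3B values lay closer together. With AZD8055 alone the log2-fold change was -1.37 in MHCC97H (-1.48 to -1.26), -1.04 in Huh7 (-1.54 to -0.59) and -0.24 in Hep3B (-0.47 to -0.02). With the combination it was -1.55, -1.65 and -0.19. The ratio of CCND1 to CCND3 per kilobase was 2.23 in untreated MHCC97H cells, 5.48 with AZD8055 and 5.66 with the combination, and it was 52.1, 269 and 253 in Huh7. In Hep3B this ratio was 7.36, 8.14 and 4.41.

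CCNE1, which per kilobase stood above CCNE2 in all libraries but MHCC97H with compound #57, had 319 scaled reads in untreated Hep3B cells, 267 with AZD8055, 379 with compound #57 and 236 with the combination. Values in MHCC97H were 195, 113, 205 and 97.9. Those in Huh7 were 182, 163, 139 and 106. The combination library was the lowest of its line in all 3 lines. CCNE2, the other E-type cyclin, had 236, 235, 334 and 185 scaled reads in Hep3B. In MHCC97H it had 321, 75.8, 456 and 94.7, and in Huh7 107, 141, 95.2 and 72.3. The MHCC97H libraries with AZD8055 thus lay far below the other MHCC97H libraries, with a log2-fold change of -2.07 for AZD8055 alone (-2.40 to -1.77) and -1.75 for the combination (-2.07 to -1.46). In Hep3B and Huh7 the CCNE2 change with AZD8055 was -0.01 and 0.40, and with the combination -0.35 and -0.55.

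CDK4 had 2346 scaled reads in untreated Hep3B cells, 2139.8 with AZD8055, 2179 with compound #57 and 2263 with the combination. In MHCC97H it had 3452, 2459, 3342 and 2273, and in Huh7 2701, 2803, 2309.9 and 2840.1. Only in MHCC97H were both libraries with AZD8055 lower than both without it, by -0.49 and -0.60 on the log2 scale against untreated cells. CDK6, the other kinase partner of the D-type cyclins, had 2473, 3079.7, 1256 and 1449.8 scaled reads in Hep3B. In MHCC97H it had 1839, 2083, 2025 and 1782, and in Huh7 1227, 1196, 712 and 473. In Hep3B and Huh7 the libraries with compound #57, alone or combined, were lower than those without it, whereas the MHCC97H values overlapped. The CDK6 change with compound #57 was -0.98 in Hep3B (-1.06 to -0.89), -0.79 in Huh7 (-0.90 to -0.67) and 0.14 in MHCC97H. The combination gave -0.77, -1.37 and -0.05 in the same order. Per kilobase, the ratio of CDK4 to CDK6 in Huh7 was 8.71 without treatment, 9.27 with AZD8055, 12.8 with compound #57 and 23.7 with the combination.

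CDKN1A had 22.5 scaled reads (24 reads) in untreated Hep3B cells, 46.6 with AZD8055, 140.2 with compound #57 and 92.4 with the combination. Its MHCC97H levels were 528, 782, 814 and 1062. In Huh7 it had 73.3, 55.7, 37.6 and 39.6. The treated libraries were all higher than the untreated library in Hep3B and MHCC97H and all lower in Huh7. In Hep3B the log2-fold changes were 1.02 with AZD8055 (0.34 to 1.80), 2.59 with compound #57 (2.03 to 3.31) and 1.99 with the combination (1.39 to 2.74). The MHCC97H changes were 0.57, 0.62 and 1.01, and those in Huh7 -0.39, -0.94 (-1.47 to -0.48) and -0.87 (-1.41 to -0.39).

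CDKN1B had 439 scaled reads in untreated Hep3B cells, 536 with AZD8055, 635 with compound #57 and 681 with the combination. For MHCC97H they were 353, 602, 442 and 708. In Huh7 it had 699, 892, 781 and 753. Each of the 9 treated libraries was higher than the untreated library of its line, by 0.11 to 1.003 on the log2 scale. The MHCC97H library with the combination lay furthest from it (1.003, interval 0.84 to 1.17), and the Huh7 library with the combination least (0.11, -0.02 to 0.24). CDKN2C had 89.1 scaled reads in untreated Hep3B cells, 58.9 with AZD8055, 80.7 with compound #57 and 40.5 with the combination. In MHCC97H it had 284, 152, 262 and 222, and in Huh7 181, 138, 214 and 93.8. In all 3 lines both libraries with AZD8055 were lower than both without it. The combination gave log2-fold changes of -1.12 in Hep3B (-1.66 to -0.63), -0.94 in Huh7 (-1.28 to -0.63) and -0.36 in MHCC97H (-0.59 to -0.13).

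Counted by size, few of the 9 genes differed at least 2-fold within a line. With AZD8055, 1 of 9 was higher and 0 lower in Hep3B (CDKN1A), where 3.81% of all genes were at least 2-fold higher and 0.823% lower. In MHCC97H 0 were higher and 2 lower (CCND3 and CCNE2; 7.14% and 3.07% of all genes), and in Huh7 1 was higher and 1 lower (CCND1 and CCND3; 5.89% and 2.52%). Compound #57 gave 1 higher and 0 lower in Hep3B (CDKN1A; 8.96% and 3.75% of all genes). In MHCC97H (3.12% and 0.84%) and Huh7 (4.43% and 1.52%) it gave 0 in either direction. The combination gave 1 higher and 1 lower in Hep3B (CDKN1A and CDKN2C; 11.6% and 6%), and 2 higher and 2 lower in MHCC97H (CDKN1A and CDKN1B, CCND3 and CCNE2; 11.4% and 4.72%). In Huh7 it gave 0 higher and 2 lower (CCND3 and CDK6; 12% and 6.46%). Several of these values lay at the edge of 2-fold. With libraries centred on their medians, CDKN1A in Hep3B with AZD8055 (0.97; 24 and 57 reads) and CDKN1A and CDKN1B in MHCC97H with the combination (0.91 and 0.90) were under it. Centring put CDK6 in Hep3B with compound #57 (-1.02), and CCND1 in Hep3B (-1.001) and CCNE1 in MHCC97H (-1.09) with the combination, past it. With 10 added in place of 1, the same CDKN1A and CDKN1B values (0.80, 0.994 and 0.985), CCND3 in Huh7 with AZD8055 (-0.91) and CDKN2C in Hep3B with the combination (-0.97) were under it.

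Direction was also counted without regard to size, as no test. Under the combination, CCND3, CCNE1, CCNE2, CDK6 and CDKN2C (5 of 9) were lower than in untreated cells in all 3 lines, as were 25.6% of all genes, and CDKN1B (1 of 9) was higher, as were 33.4%. AZD8055 alone gave 3 of 9 lower in all lines (CCND3, CCNE1 and CDKN2C; 25.7% of all genes) and 1 higher (CDKN1B; 28.4%). Compound #57 alone gave 1 lower (CDK4; 19.7%) and 1 higher (CDKN1B; 30.6%). CDKN1B was thus higher in all 3 lines with every treatment. These comparisons share the untreated libraries, so their values stand side by side and are not independent.

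Across the cell lines, treatments were compared with limma on the log2 values of the 12 libraries, with cell line as a term, and p-values were adjusted over all 11548 genes. With the combination 5 of the 9 genes passed an adjusted p-value of 0.05, 1 higher and 4 lower, beside 36% of all genes (20.9% higher and 15.1% lower). CCND3 fell by 1.13 on the log2 scale (SE 0.26, adjusted p = 0.0107), CDKN2C fell by 0.81 (SE 0.22, 0.0197), CCNE1 fell by 0.73 (SE 0.20, 0.0196) and CDK6 fell by 0.73 (SE 0.26, 0.0496). CDKN1B rose by 0.58 (SE 0.18, adjusted p = 0.0299). Values in all 3 lines had the direction of the estimate for each of these 5 genes. The median over the 9 genes was -0.73, against 0.09 over all genes. CCNE2 (-0.89, SE 0.48, adjusted p = 0.168), CDKN1A (0.71, SE 0.53, 0.312), CDK4 (-0.19, SE 0.16, 0.37) and CCND1 (-0.18, SE 0.28, 0.623) did not pass. The p-values measure only how the changes spread between 3 cell lines. That spread was estimated from all 12 libraries, including those of treatments not compared here. With only the libraries compared, the limma adjusted p-values of these 5 genes ran from 0.0585 (CCNE1) to 0.107 (CDK6). With Huh7 left out, 0 of the 9 passed; without Hep3B it was 1 (CCND3, adjusted p = 0.0187), without MHCC97H 2 (CDK6, 0.00959, and CDKN2C, 0.0113), and without a cell line term 0. The share of all genes called in these settings is not given here, so the counts cannot be read as particular to the 9 genes. The CDK6 estimate was -0.41 without Huh7, and that of CDKN1B was 0.37 without MHCC97H.

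**Figure D2:**
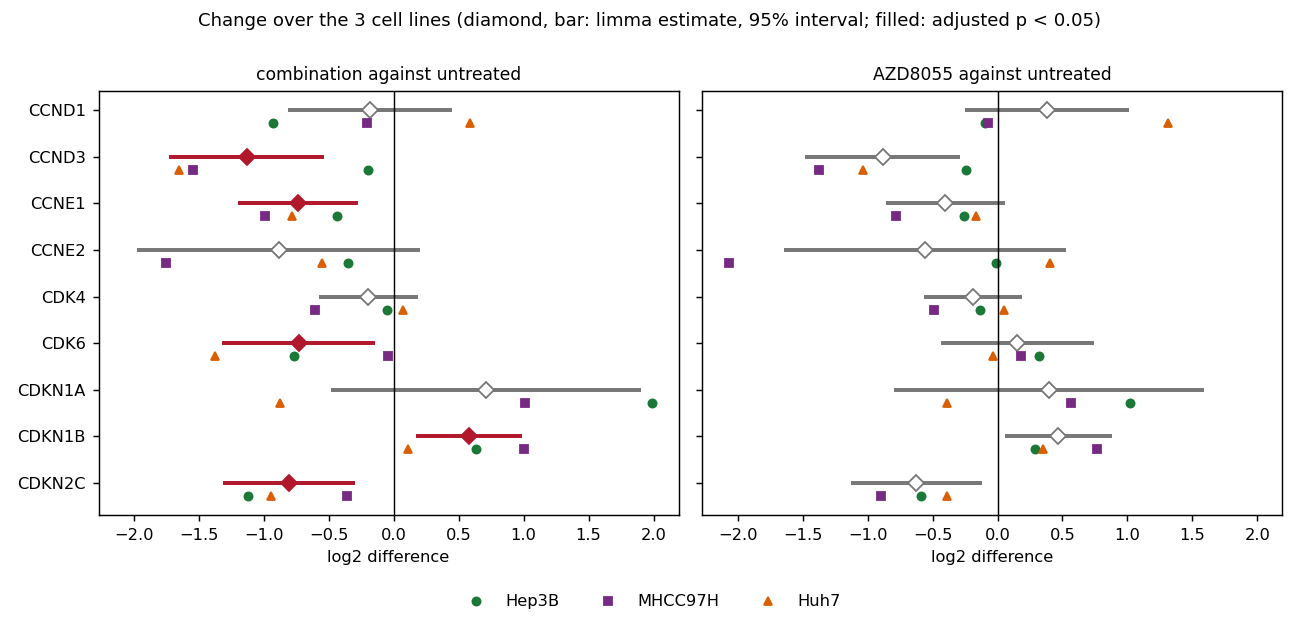
Log2 difference against untreated cells over the 3 cell lines for the combination (left) and AZD8055 (right); diamonds and bars are the limma estimate and its 95% interval, filled where the adjusted p-value was under 0.05, and small symbols are the single cell lines. For the combination CCND3, CCNE1, CDK6 and CDKN2C are filled on the lower side and CDKN1B on the higher side, while the CDKN1A symbols run from -0.87 in Huh7 to 1.99 in Hep3B.

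With AZD8055 alone, limma called 0 of the 9 genes, beside 2.96% of all genes (2.21% higher and 0.753% lower). At an unadjusted p under 0.05 there were 3: CCND3 (-0.88, SE 0.26, adjusted p = 0.0759), CDKN2C (-0.63, SE 0.22, 0.109) and CDKN1B (0.47, SE 0.18, 0.128). The same 3 genes passed with the combination, but the shared libraries make these tests dependent. Compound #57 alone gave 0 called of 9 and 0 at an unadjusted p under 0.05, where 0.00866% of all genes were called. CDK6 came closest (-0.54, SE 0.26, adjusted p = 0.253). Its change was 0.14 in MHCC97H, against -0.98 in Hep3B and -0.79 in Huh7. Without MHCC97H, the line with the other sign, CDK6 was called (-0.88, 0.0467). The share of all genes called in that setting is not given here. The voom method on whole reads also called 0 of the 9 in either comparison.

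Whether compound #57 added to AZD8055 was read from the combination against AZD8055 alone. Again limma called 0 of the 9 genes, beside 0% of all genes, and voom 0. CDK6 was the only member at an unadjusted p under 0.05 (-0.88, SE 0.26, adjusted p = 0.223), and its combination library was lower than the AZD8055 library in all 3 lines, by -1.09 in Hep3B, -0.23 in MHCC97H and -1.34 in Huh7. By size, CDK6 was 1 of 9 at least 2-fold lower in Hep3B (3.33% of all genes) and in Huh7 (1.84%), with 0 in MHCC97H (1.13%), and 0 were 2-fold higher in Hep3B (5.73%), MHCC97H (2.81%) or Huh7 (4%). With centred libraries CCNE2 in Huh7 (-1.006) also passed 2-fold. CCND1 and CCNE1 were also lower in all 3 lines, which with CDK6 made 3 of 9, and 16.3% of all genes. CCND1 differed by -0.83 in Hep3B, -0.72 in Huh7 and -0.13 in MHCC97H, and over the lines by -0.56 (SE 0.28, adjusted p = 0.377).

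Against compound #57 alone, the combination had 1 of the 9 genes called, CCND3, which fell by 1.21 (SE 0.26, adjusted p = 0.0391), beside 4.18% of all genes (1.57% lower). Without Huh7 or without Hep3B CCND3 was not called (adjusted p = 0.413 and 0.119), and without MHCC97H only CDKN2C was (0.044). For these settings the share of all genes called is not given here. CCNE1 (-0.71, SE 0.20, adjusted p = 0.0719), CDKN2C (-0.80, SE 0.22, 0.0683) and CCNE2 (-1.17, SE 0.48, 0.165) were at an unadjusted p under 0.05. All of these 4 were lower in all 3 lines (4 of 9; 21.8% of all genes), and 0 of 9 were higher in all 3 (26.3%). At least 2-fold lower were CCND3, CCNE1 and CCNE2 in MHCC97H (3 of 9; 3.3% of all genes), CCND3 and CDKN2C in Huh7 (2 of 9; 3.12%) and 0 in Hep3B (2.75%), while 0 were 2-fold higher in Hep3B (2.68%), MHCC97H (4.97%) or Huh7 (5.63%). CCNE2 in MHCC97H lay furthest down, with -2.26 (-2.57 to -1.98). CCNE1 in MHCC97H was -0.998 with 10 added, and CDKN2C in Hep3B was -1.003 with centred libraries.

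The combination was also set against the sum of both single-drug changes. Over the lines, the limma interaction term called 0 of the 9 genes and 0% of all genes, and 0 of the 9 were at an unadjusted p under 0.05; voom called 0 as well. The interval of this term for CDK4 was -0.39 to 0.64, and that for CDKN1A was -2.11 to 1.22. Within single lines, CDKN1A in Hep3B was 1.99 with the combination and 3.60 as the sum. CCND1 in Huh7 was 0.59 against a sum of 1.42, CDKN2C in Huh7 -0.94 against -0.15, and CCNE2 in Hep3B -0.35 against 0.49. CDKN2C in MHCC97H had the opposite sign of difference, with -0.36 against -1.01. None of these within-line values has a replicate.

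Differences between the lines, over all 4 treatments, reached 4.20 on the log2 scale. The 4 libraries of a line are 4 treatments of 1 line, so these limma p-values measure only how steady a difference was over treatments. MHCC97H and Hep3B differed in 5 of 9 genes (67.8% of all genes), MHCC97H and Huh7 in 6 (70.2%) and Hep3B and Huh7 in 7 (55.1%). CDKN1A was higher in MHCC97H than in Hep3B by 3.64 (SE 0.46, adjusted p = 5.88e-05) and than in Huh7 by 3.93 (SE 0.46, 2.99e-05). Its Hep3B and Huh7 levels were not separated (0.29, SE 0.46, adjusted p = 0.617). CCND3 was highest in MHCC97H, then Hep3B, then Huh7, with MHCC97H above Huh7 by 4.20 (SE 0.23, adjusted p = 1.11e-07), whereas CCND1 was highest in Huh7 and lowest in Hep3B, a difference of -1.94 (SE 0.24, 1.04e-04). CDK6 was lower in Huh7 than in Hep3B and MHCC97H by about the same amount (Hep3B against Huh7 1.20, SE 0.22, adjusted p = 0.00129), and MHCC97H and Hep3B did not differ beyond their spread (0.00, with the sign changing under centring of the libraries). CCNE1 was higher in Hep3B than in MHCC97H (by 1.02 over the treatments) and Huh7, and CDKN2C was lowest in Hep3B. For CDK4 no pair of lines passed the threshold, with differences of 0.35, 0.09 and -0.25, but with centred libraries MHCC97H was above Hep3B by 0.42 (SE 0.14, adjusted p = 0.0262, against 0.0514 without centring).

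Other regulators of the G1/S step were read from a list of 32 genes, all analysed. With the combination 9 of them were lower and 3 higher by limma, 12 of 32 beside 36% of all genes (15.1% lower and 20.9% higher), with a median of -0.22 against 0.09 over all genes. SKP2, the ubiquitin ligase subunit that targets p27, fell by 1.005 (SE 0.15, adjusted p = 0.00287), and CKS1B, its cofactor, fell by 0.72 (SE 0.21, 0.0272). CDC25A, the phosphatase that activates CDK2, fell by 1.94 (SE 0.42, 0.00846). TFDP1, the partner of E2F factors, fell by 0.98 (SE 0.17, 0.00406), and E2F5, E2F6, E2F7 and E2F8 fell by 0.57 to 1.32. CCNH was lower and CDK7 higher, both members of the kinase complex that activates CDKs, and TFDP2 and CABLES1 were higher. With AZD8055 alone SKP2 (-0.87, SE 0.15, adjusted p = 0.0315) and TFDP1 (-0.77, SE 0.17, 0.0452) were called, 2 of 32 and both lower, beside 0.753% of all genes lower, and with compound #57 alone 0 of 32 (0.00866%). Against compound #57, the combination had 2 of 32 lower (SKP2 and TFDP1; 1.57% of all genes) and 1 higher (CDK7; 2.62%).

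Some regulators central to the pathway were not called. CDK2, the partner of the E-type cyclins, had -0.43 with the combination (SE 0.21, adjusted p = 0.126) and -0.41 with AZD8055 (SE 0.21, 0.228). E2F1 had 714 scaled reads in untreated MHCC97H cells, 172 with AZD8055, 818 with compound #57 and 176 with the combination. Those in Hep3B were 322, 370, 505 and 381, and in Huh7 857, 721, 889 and 604, so the MHCC97H libraries with AZD8055 held the lowest E2F1 values of all. RB1 ranged from 51.5 to 74.3 scaled reads in Hep3B, from 107 to 190 in MHCC97H and from 981 to 1214 in Huh7, with 0.03 for the combination (SE 0.17, adjusted p = 0.907). CDKN1C (p57), the remaining CIP/KIP inhibitor, was at least 2-fold higher with the combination in all 3 lines (1.20, 1.98 and 1.82 in Hep3B, MHCC97H and Huh7). It did not pass over the lines (1.67, SE 0.63, adjusted p = 0.0647). In the same order of lines it changed by -0.83, 1.085 and 0.63 with AZD8055, and by 2.64, 0.42 and 0.39 with compound #57. In Hep3B the combination thus lay below compound #57 alone (-1.445). The share of all genes at least 2-fold higher in all 3 lines is not given here.

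A list of 20 E2F target genes of S-phase entry, all analysed, was read as the downstream side of the pathway. With AZD8055 alone, 18 of 20 were at least 2-fold lower in MHCC97H (3.07% of all genes) and 0 in Hep3B (0.823%) and in Huh7 (2.52%). The medians were -1.31 in MHCC97H, -0.12 in Hep3B and -0.36 in Huh7, against 0.06, 0.02 and -0.02 over all genes. With the combination 12 of 20 were at least 2-fold lower in MHCC97H (4.72% of all genes), 7 in Huh7 (6.46%) and 2 in Hep3B (6%), with medians of -1.15, -0.82 and -0.46. Over the lines limma called 12 of 20 lower and 0 higher with the combination (15.1% and 20.9% of all genes), 0 with AZD8055 (2.96% in either direction) and 0 with compound #57 alone (0.00866%). Among those called were the licensing and replication genes CDC6, CDC45, MCM3, MCM4, MCM7 and POLA1, the nucleotide synthesis genes RRM1, RRM2 and TK1, and CCNA2 and UHRF1. CDC6 moved furthest (-1.92, SE 0.41, adjusted p = 0.00814). Under AZD8055, MHCC97H was thus the line with both the lowest CCNE2 change and the lowest median of the E2F targets, and the difference between lines was not tested.

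**Figure D3:**
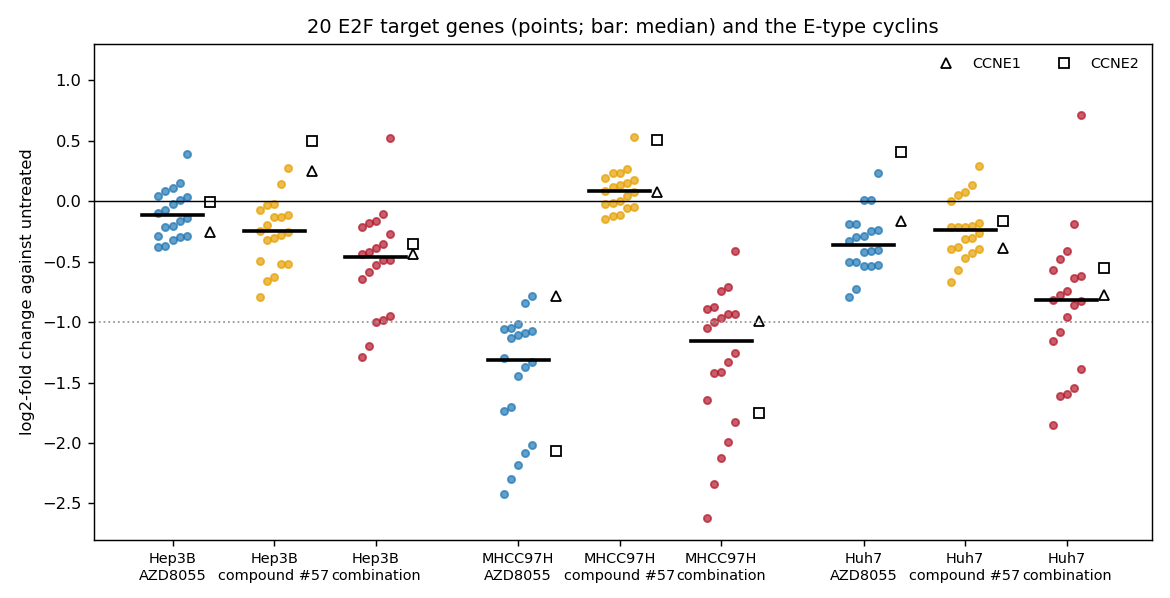
Log2-fold change against untreated cells of 20 E2F target genes (points, with a bar at their median) and of CCNE1 (triangles) and CCNE2 (squares), for each cell line and treatment, with a dotted line at 2-fold lower. In MHCC97H the medians lie at -1.31 with AZD8055 and -1.15 with the combination and CCNE2 below them, whereas with compound #57 the MHCC97H median is 0.08.

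Genes whose levels ran most like a member were sought among 11243 genes with reads in every library. The mean of each line was removed first, over 12 libraries that share lines. Each gene named is the top of that search and no test was run, so a high r alone is not evidence of a shared pathway. CCNE2 ran most like CDK2 (Pearson r = 0.962) and BRIP1 (0.959), a DNA repair helicase. CCNE1 ran most like UHRF1 (0.958), which is one of the 20 E2F targets, and CMC2 (0.955). CCND3 had IMMP1L (0.979) and ICMT (0.978), and CCND1 had EEPD1 (0.951) and SLC43A3 (0.885). The kinase CDK6 had SNX25 (0.961) and EPAS1 (0.953), and CDK4 had SNRNP27 (0.955) and UBR7 (0.952). For the inhibitors the nearest were TULP3 (0.94) and HYAL3 (0.893) for CDKN1A, RP11-67L2.2 (0.965) and KIF13B (0.96) for CDKN1B, and RPRD1B (0.953) and MGAT2 (0.947) for CDKN2C. No member was among the nearest pair of another member.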

How the data were processed

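RNA was extracted from 12 cultures, 1 per cell line and treatment, and sequenced as polyA+ stranded libraries. Reads were mapped to hg38 by the authors, who deposited a log2 value for each gene in each library; the aligner, the counting and the scaling are not given in the sources used here. The scale was worked out from the values: at least 99.99% of the linear values of a library were whole multiples of 1 step within 0.02 of a read. Each value was therefore read as log2(x + 1), where x is the reads of a gene per 10000000 reads of its library, and 0.001 stood for 0 reads. Because the deposited values are on the log2 scale, tests ran on them as they stand.

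The genes and lists were chosen with earlier results of these data known. The members were named always, RB1, CDK2 and E2F1 always, and other listed genes where limma called them or where they changed at least 2-fold the same way in all 3 lines; some listed genes are not reported here. Within a line, the log2-fold change is the difference between 2 libraries, with a 95% interval of the read ratio (Clopper-Pearson) and no p-value. A fold change on this scale understates that of genes with few reads. Across lines, limma 3.58.1 (lmFit, eBayes with trend) fitted treatment and cell line to all 12 libraries, with 6 residual degrees of freedom and Benjamini-Hochberg adjustment over 11548 genes. Libraries of the same line form the pairs: their deviations from the treatment means correlated at 0.872 to 0.96 over 18 pairs. Exon lengths came from GENCODE 44, as the union of all annotated exons, and start regions from RefSeq. Calculations were tested on simulated data. Alternatives were 10 added instead of 1, only the upper 75% of genes by mean, centred libraries, voom on whole reads, no line term, each line left out, and only the libraries compared. Python 3.11.15 and R 4.3.3 were used.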

Additional observations from a re-analysis of the deposited data

Results flagged for a closer look

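For 3 of the 9 genes, a pair of cell lines moved in opposite directions under the same comparison, each by at least 0.5 on the log2 scale and with counting intervals off 0. With 1 library per condition the difference between lines was not tested, and exposure time cannot be told apart from MHCC97H.

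CDKN1A was flagged most often. With compound #57 its log2-fold change was 2.59 in Hep3B and -0.94 in Huh7, a difference of 3.53, and 0.62 in MHCC97H, a difference of 1.57 from Huh7. With the combination it was 1.99 in Hep3B and -0.87 in Huh7, a difference of 2.86, and 1.01 in MHCC97H, a difference of 1.88 from Huh7. CCND1 with the combination was 0.59 in Huh7 and -0.93 in Hep3B, a difference of 1.52. CDKN2C, in the combination against AZD8055, was 0.54 in MHCC97H and -0.55 in Huh7, a difference of 1.09.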

How the results depend on the processing

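With 1 library per line and treatment, the calls rest on 3 lines whose exposure times differ, and genes with few reads, such as CDKN1A in untreated Hep3B cells (24 reads), are the least precise. For the combination against untreated cells, 5 genes were called; this was 5 with 10 added, with the 75% of genes of highest mean and with centred libraries, 3 with voom, 0 with only the libraries compared and 0 to 2 with a line left out. With no replicate block, that is without the cell line pairing, 0 were called in this comparison, and against compound #57 0 in place of 1. Leaving out a line gave 0 to 1 called against compound #57, and 0 to 1 for compound #57 against untreated cells. None of these counts was set beside the share of all genes called in the same setting, so they cannot be read as particular to these genes. With CDK6 (adjusted p = 0.05) and CDKN2C (0.0559), voom missed the threshold narrowly. Centring moved the split of all called genes for the combination from 2410 higher and 1744 lower to 1993 and 2229, and for AZD8055 from 255 and 87 to 256 and 217.

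Estimates that had not passed changed sign when a line was left out. For AZD8055 the ranges over the lines left out were -0.088 to 0.62 for CCND1 and -1.04 to 0.20 for CCNE2. For compound #57 they were -0.053 to 0.18 for CCND3, -0.16 to 0.16 for CCNE1, -0.16 to 1.60 for CDKN1A and -0.13 to 0.06 (0.049 without MHCC97H) for CDKN2C. For the combination they were -0.57 to 0.19 for CCND1 and -0.33 to 0.01 for CDK4. For the combination against AZD8055 they were -0.05 to 0.05 for CDK4, -0.021 to 0.71 for CDKN1A, -0.005 to 0.29 for CDKN1B and -0.54 to 0.005 for CDKN2C. Against compound #57 they were -0.17 to 0.21 for CCND1, -0.25 to 0.18 for CDK4, -0.39 to 0.011 for CDK6 and -0.26 to 0.23 for CDKN1A. For the interaction they were -0.90 to 0.14 for CDKN1A and -0.59 to 0.14 for CDKN2C. With voom, the sign also changed for CDKN2C with compound #57 (0.014), CDKN1A in the combination against compound #57 (0.12) and CDK6 in MHCC97H against Hep3B (0.003), and with centring for the last (0.07). The cause was not tested.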
